A study of Homo sapiens with 24 samples.

Results

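Described here are 136 genes for ion channels, neurotransmitter receptors, other G protein coupled receptors and the subunits and RGS proteins that act on them. They were chosen by name from the study's supplementary table of genes that differed between FOXP1 and GFP cells, as all symbols that start with KCN, CACN, SCN, GABR, GRIA, GRIK, GRIN, GRM, CHRN, CHRM, HTR, DRD, ADRA, ADRB, GLR, TRPC, TRPM, TRPV, CLCN, P2RX, GPR or RGS, other than RGS5. They are 136 of the 3504 genes that the entries used here name. For each symbol the probe with the highest mean log2 signal over the 24 arrays was taken. The table lists genes by cell line, and 69 of the 136 were listed for IMR-32, 69 for CHP-212 and 19 for SK-N-BE(2). Of these, 53 were listed for IMR-32 alone, 51 for CHP-212 alone, 11 for SK-N-BE(2) alone, 13 for IMR-32 and CHP-212, 5 for CHP-212 and SK-N-BE(2), and 3 for IMR-32 and SK-N-BE(2). The difference between FOXP1 and GFP cells in a listing line therefore chose these genes, and it is given below as a description without a test. All 1489 entries for CHP-212 were used, with 1997 of 2370 for IMR-32 and 642 of 855 for SK-N-BE(2), so a gene not listed for IMR-32 or SK-N-BE(2) may stand among the entries not used here. The letters of the rule also take in 3 genes that are neither channel nor receptor: HTRA1, a secreted serine protease, GPRIN3, a protein that binds G proteins, and KCNQ1DN, a transcript next to the potassium channel gene KCNQ1.

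Ion channels let ions cross the membrane when voltage, a transmitter, calcium or temperature opens them, and so set whether a nerve cell fires. GABA-A, glycine, nicotinic, ionotropic glutamate, P2X and HTR3 serotonin receptors are channels opened by their transmitter. The other transmitter receptors signal through G proteins, which RGS proteins switch off by speeding GTP hydrolysis. Neuroblastoma arises from cells of the sympathetic nerve lineage, whose mature neurons fire through such channels and carry nicotinic and adrenergic receptors.

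The study put FOXP1, a forkhead transcription factor, or GFP under a doxycycline-controlled retroviral promoter in 3 established human neuroblastoma lines, which were SK-N-BE(2), CHP-212 and IMR-32. RNA labelled with the dye Cy3 was hybridised to 1 array per sample, with 43291 probes besides control spots. Each line gave a culture with GFP and a culture with FOXP1, each polyclonal. Both were profiled at 0, 12, 24 and 72 h, which made 6 groups of 4 arrays. The hours are counted from the induction of the transgene with doxycycline, in GFP and FOXP1 cultures alike. Within a group the 4 arrays come from 1 culture at successive times, so their spread leaves out variation between separately made cultures, and the study names leakage of the vector's promoter as the reason for taking GFP cultures as controls. All values below are log2 of the processed signal minus the 75th percentile of the array, and each run of 4 values gives 0, 12, 24 and 72 h in that order. A lower value may reflect fewer cells with a transcript or less of it per cell, which bulk RNA cannot tell apart.

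The FOXP1 probe was read first, to check the labels. Its log2 signal was 1.05, 1.19, 1.39 and 1.18 in IMR-32 GFP cells and 2.60, 2.76, 2.66 and 2.38 in IMR-32 FOXP1 cells. In CHP-212 it was 0.77, 1.21, 1.08 and 1.05 in GFP cells and 2.81, 3.28, 3.00 and 2.94 in FOXP1 cells. FOXP1 cells were higher on every array of both lines, at 0 h as well. In SK-N-BE(2) the signal was 3.00, 3.30, 2.87 and 2.81 on the GFP arrays and 2.97, 2.84, 2.63 and 2.73 on the arrays labelled FOXP1. There the ranges overlapped and the FOXP1 label was not higher, so differences in SK-N-BE(2) are between arrays labelled FOXP1 and GFP.

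Each slide held 4 arrays of 1 line, either 0 and 12 h or 24 and 72 h, with both cultures. The share of probes well above background was 72.8 to 82.3% on the IMR-32 arrays and 73.6 to 80.4% on those of SK-N-BE(2). CHP-212 arrays of 24 and 72 h had 78.0 to 81.5%, but those of 0 and 12 h had 53.9 to 60.4%, and this slide stands apart. Of the 136 genes, 66 were above background on all 4 IMR-32 GFP arrays and 68 on all 4 IMR-32 FOXP1 arrays. In CHP-212 the counts were 42 for GFP and 30 for FOXP1, and in SK-N-BE(2) they were 69 for each. Over all 24 arrays, 16 genes were above background throughout, while GABRA4, GPR101, GPR110 and HTR5A were on no array. Where a probe was not above background on every array of the lower group, the fold change is given as a lower bound, with the unmeasured arrays set to at least their lowest signal above background. Differences on the log2 scale, and rankings by them, use the signal as read. Against such a group their size is not measured.

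In IMR-32, 57 of the 69 listed genes had at least 4 of 8 arrays above background, the limit for testing a probe. Of these 57, 29 were higher and 28 lower in FOXP1 cells, from -8.09 for KCNK1 to 7.32 for GPR22, with a median size of 2.13. For comparison, limma called 12.2% of the 33803 probes tested in IMR-32 at an adjusted p under 0.05 and a fold of at least 2, 6.34% higher and 5.86% lower, and nothing is read from the listed genes against it, because this contrast chose them. At 0 h, 52 of the 57 already differed at least 2-fold in the direction of their mean. The direction was the same at all 4 time points for 56, beside 49.6% of all probes tested there, and the groups did not overlap for 53, beside 26.2% of all. The listing favours both, so nothing is read from these shares. Quantile normalization and the authors' normalized values kept the direction of all 57, and normexp background correction kept 55, with SCN4B among those that turned. That correction moved the median of all probes by 0.23.

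Channels opened by transmitters moved both ways in IMR-32, and the 4 GABA-A receptor subunits listed for this line that reached the limit for testing were all lower. GABRP and GABRD, 2 further subunits tested there but not listed for it, had mean differences of 0.14 and 0.41 with overlapping groups and were not called. The subunit gene GABRA5 had log2 signals of -0.82, -1.09, -0.68 and -0.82 in GFP cells and -6.61, -6.66, -7.33 and -7.06 in FOXP1 cells. GFP cells were high and FOXP1 cells low at every time point, at least 51-fold lower in the mean. GABRA2, another alpha subunit, had -3.59, -3.64, -3.25 and -3.52 in GFP cells and -6.10, -5.84, -6.15 and -6.70 in FOXP1 cells, at least 6.38-fold lower. The gamma subunit GABRG1 had -6.23, -5.38, -4.58 and -4.38 in GFP cells and -9.08, -9.12, -8.11 and -7.15 in FOXP1 cells, at least 2.91-fold lower and on no FOXP1 array above background. GABRB1, a beta subunit, had -4.44, -4.42, -3.59 and -3.23 in GFP cells and -6.01, -5.66, -4.98 and -5.18 in FOXP1 cells, 2.9-fold lower. In each of these 4 genes every FOXP1 array was below every GFP array.

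GABRA2, GABRG1 and GABRB1 are neighbours on chromosome 4. As genes that moved together, they are shown by the 250 bases before the start, from RefSeq on GRCh38.p14, read on the gene's strand. The positions are chr4:46390301-46390550 on the minus strand for GABRA2, chr4:46124055-46124304 on the minus strand for GABRG1 and chr4:47031317-47031566 on the plus strand for GABRB1.
GABRA2: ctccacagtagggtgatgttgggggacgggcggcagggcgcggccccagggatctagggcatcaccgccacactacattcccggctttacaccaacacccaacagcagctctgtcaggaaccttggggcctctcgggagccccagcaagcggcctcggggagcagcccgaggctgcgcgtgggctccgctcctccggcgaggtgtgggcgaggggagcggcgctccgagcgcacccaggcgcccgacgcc
GABRG1: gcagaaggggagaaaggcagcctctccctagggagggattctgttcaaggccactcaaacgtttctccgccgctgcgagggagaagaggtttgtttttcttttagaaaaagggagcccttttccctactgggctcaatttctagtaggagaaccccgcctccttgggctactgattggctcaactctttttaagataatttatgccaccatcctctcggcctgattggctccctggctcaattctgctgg
GABRB1: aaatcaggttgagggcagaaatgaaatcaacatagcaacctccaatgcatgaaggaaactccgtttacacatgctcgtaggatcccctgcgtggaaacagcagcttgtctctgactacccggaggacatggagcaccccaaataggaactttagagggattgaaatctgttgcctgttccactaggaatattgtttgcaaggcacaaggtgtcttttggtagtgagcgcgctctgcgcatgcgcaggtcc
A promoter of this kind was found for 102 of the 136 genes. The forkhead core TGTTTAC was searched on both strands, and so was TTCAGCACC, the left part of the RE1 element that the repressor REST binds in many neuronal genes. No match of either lay in the 3 promoters above, which says only that those letters are not in these windows. The share of G and C was 71.2% for GABRA2, 51.2% for GABRG1 and 49.2% for GABRB1.

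Of the ionotropic glutamate receptor genes listed for IMR-32, 4 of 5 were higher in FOXP1 cells. GRIK4, tested there but not listed for it, had a mean difference of -0.38 with overlapping groups and was not called. GRIA3, an AMPA receptor subunit, had log2 signals of -8.34, -6.07, -8.16 and -8.24 in GFP cells and -2.58, -2.91, -2.61 and -1.99 in FOXP1 cells. FOXP1 cells were high on every array and GFP cells were above background on 1, a difference of at least 13.5-fold. GRIA2, the subunit that keeps calcium out of AMPA receptors, had -2.06, -2.72, -1.68 and -2.16 in GFP cells and 0.18, -0.59, 0.34 and 0.81 in FOXP1 cells, 5.08-fold higher. GRIN3A, an NMDA receptor subunit, had -2.45, -2.64, -2.48 and -2.79 in GFP cells and 0.65, 0.34, -0.43 and 0.20 in FOXP1 cells, 6.87-fold higher. The kainate receptor subunit GRIK2 rose by a mean of 1.07 with overlapping groups. Its relative GRIK3 went the other way, with 2.45, 2.39, 2.63 and 3.05 in GFP cells and -1.54, -1.34, -1.64 and -0.88 in FOXP1 cells. GRIK3 was thus 15.8-fold lower, and the groups lay far apart.

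GRIA2 and KCNK3, a tandem-pore potassium channel gene, were the 2 members whose promoters held TTCAGCACC, which occurred in 0.288% of 35116 promoters. That share counts each annotated start by itself, while a member counts if any of its starts holds the letters, so the units differ. Both are shown from RefSeq on GRCh38.p14, plus strand, with the match in capitals, at chr4:157220369-157220618 for GRIA2 and chr2:26692472-26692721 for KCNK3. In both the match reads on the opposite strand, 219 bases before the start of GRIA2 and 31 bases before that of KCNK3, and GRIA2 holds it at 1 of 3 annotated starts.
GRIA2: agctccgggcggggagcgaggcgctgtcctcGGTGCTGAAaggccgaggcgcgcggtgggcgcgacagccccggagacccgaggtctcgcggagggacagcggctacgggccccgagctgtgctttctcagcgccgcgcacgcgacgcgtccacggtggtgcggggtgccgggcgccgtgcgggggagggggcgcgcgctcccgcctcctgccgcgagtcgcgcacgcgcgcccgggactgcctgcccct
KCNK3: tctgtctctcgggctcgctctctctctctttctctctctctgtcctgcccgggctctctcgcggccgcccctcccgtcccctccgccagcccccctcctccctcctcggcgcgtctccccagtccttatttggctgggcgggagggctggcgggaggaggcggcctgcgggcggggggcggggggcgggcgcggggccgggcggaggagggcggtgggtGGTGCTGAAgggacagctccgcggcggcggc
In IMR-32 the gene GRIA2 was higher in FOXP1 cells and KCNK3 lower, at -0.56, -0.75, -0.43 and 0.08 in GFP cells and -1.77, -1.69, -1.54 and -1.07 in FOXP1 cells, so that the 2 genes with these letters differed in direction.

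The other transmitter-gated channels of IMR-32 were likewise divided. CHRNB4, a subunit of the nicotinic receptor of sympathetic ganglia, had log2 signals of -1.75, -2.01, -2.10 and -2.20 in GFP cells and -9.17, -7.51, -7.41 and -7.59 in FOXP1 cells. It was above background on all GFP arrays and on no FOXP1 array, at least 25.4-fold lower. The glycine receptor subunit GLRB had -1.21, -1.07, -0.44 and -0.91 in GFP cells and 0.19, -0.14, 0.66 and 0.53 in FOXP1 cells, 2.33-fold higher without overlap. P2RX7, an ATP-gated cation channel, had -8.57, -6.30, -5.85 and -5.74 in GFP cells and -4.19, -3.31, -3.82 and -3.81 in FOXP1 cells, at least 5.01-fold higher. Its family member P2RX4 was 2.6-fold higher, and the serotonin-gated channel HTR3A was 2.12-fold lower, each without overlap of the groups.

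Tandem-pore potassium channels, which carry the resting leak current, were lower in IMR-32 for the 3 listed for it, while KCNK13, not listed for it, was called higher there, with its values given further below. KCNK1 had log2 signals of -0.38, 0.11, 0.30 and 0.26 in GFP cells and -8.22, -7.48, -8.20 and -8.16 in FOXP1 cells. This was the lowest difference of all listed genes in IMR-32: GFP cells sat near the 75th percentile of their arrays and FOXP1 cells were above background on no array, at least 108-fold lower. KCNK2, a mechanosensitive channel of this type, had -0.49, -1.42, -1.67 and -1.74 in GFP cells and -2.88, -3.57, -2.99 and -2.96 in FOXP1 cells, 3.41-fold lower. KCNK3 fell by 1.10 on the log2 scale, with the values given above.

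Voltage-gated potassium channel genes were split. KCNH5, of the ether-a-go-go type, had log2 signals of -8.75, -9.42, -8.35 and -8.40 in GFP cells and -3.12, -3.61, -2.84 and -3.14 in FOXP1 cells. It was above background on no GFP array and on all FOXP1 arrays, at least 10.5-fold higher. KCNQ1, a slowly activating channel, had -7.01, -6.34, -5.83 and -3.98 in GFP cells and -2.99, -2.57, -2.55 and -1.92 in FOXP1 cells, at least 8.97-fold higher, with GFP values that rose over time. KCNB2, a delayed rectifier, had -3.73, -4.34, -3.76 and -4.48 in GFP cells and -7.47, -8.94, -8.06 and -8.79 in FOXP1 cells, at least 6.09-fold lower. Among the auxiliary subunits, KCNMB3, which modifies calcium-activated channels, was 5.34-fold higher and KCNE2 was at least 5.74-fold lower.

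Both sodium channel pores listed for IMR-32 were higher, while SCN9A, a further pore not listed for it, differed by 0.11 and was not called. SCN2A had log2 signals of -7.35, -7.05, -6.38 and -6.29 in GFP cells and -3.18, -3.96, -2.93 and -3.03 in FOXP1 cells. GFP cells were above background on no array, and the difference was at least 9.47-fold. Its neighbour SCN3A on chromosome 2 had -4.54, -4.15, -4.71 and -4.48 in GFP cells and -1.99, -2.84, -2.19 and -2.62 in FOXP1 cells, 4.17-fold higher. Calcium channel pores differed in direction: CACNA1H, a T-type channel that opens at low voltage, had 0.34, 0.19, 0.67 and 1.38 in GFP cells and -3.86, -3.03, -3.34 and -3.38 in FOXP1 cells, 16.5-fold lower. The L-type pore CACNA1C had -8.16, -6.88, -6.65 and -6.76 in GFP cells and -3.85, -3.83, -4.13 and -4.18 in FOXP1 cells, at least 5.56-fold higher. Of the proteins that bind AMPA receptors or calcium channels, CACNG2 had -5.17, -5.10, -5.83 and -5.28 in GFP cells and -2.70, -2.20, -2.20 and -2.32 in FOXP1 cells, 7.96-fold higher, with the groups well apart. The N-type pore CACNA1B, which triggers transmitter release, was 2.68-fold lower. The TRP channel genes listed for IMR-32, TRPV2, TRPM3 and TRPM4, were higher, by a mean of 1.09 for TRPV2. TRPM3 was above background on 6 of 8 arrays and TRPM4 on 5, so no size is given for them.

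The transmitter receptors HTR4, ADRA2A and DRD2, which signal through G proteins, were lower in IMR-32 FOXP1 cells under every scaling run. HTR4, a serotonin receptor that raises cyclic AMP, had log2 signals of -4.71, -5.22, -4.54 and -4.08 in GFP cells and -9.20, -9.25, -8.35 and -8.46 in FOXP1 cells. It was above background on GFP arrays alone, at least 4.13-fold lower. ADRA2A, the alpha-2A adrenergic receptor that damps noradrenaline release, had 2.27, 2.32, 1.93 and 1.93 in GFP cells and -1.51, -1.37, -1.57 and -1.48 in FOXP1 cells, 12.1-fold lower. DRD2, a dopamine receptor that lowers cyclic AMP, had -2.15, -2.11, -2.69 and -2.47 in GFP cells and -4.31, -3.56, -3.96 and -4.06 in FOXP1 cells, 3.07-fold lower. Neither group of these 3 genes overlapped the other. Just past the 2-fold limit of the table was the listed gene HTRA1 at -1.04, and just short of it among genes not listed for IMR-32 was HTR2B at 0.89.

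Among orphan receptors, GPR22 had log2 signals of -6.48, -6.68, -6.91 and -8.44 in GFP cells and 0.30, -0.03, 0.39 and 0.09 in FOXP1 cells. This was the highest difference of the listed genes in IMR-32, at least 96.8-fold, and was present at 0 h. GPR26, another orphan receptor, had -1.76, -2.15, -1.51 and -0.73 in GFP cells and -8.93, -8.56, -8.24 and -8.95 in FOXP1 cells, at least 35.3-fold lower and above background on no FOXP1 array. Of the RGS proteins, RGS4 had -1.26, -0.29, -0.09 and -0.28 in GFP cells and 2.15, 2.17, 2.37 and 2.88 in FOXP1 cells, 7.32-fold higher. RGS16 had -1.55, -0.29, -0.26 and -0.28 in GFP cells and -4.36, -5.19, -5.45 and -4.93 in FOXP1 cells, 21-fold lower. In GFP cells RGS4 and RGS16 both had their lowest value at 0 h. HTRA1, the protease, had -2.89, -2.47, -1.79 and -0.90 in GFP cells and -2.95, -2.82, -3.32 and -3.12 in FOXP1 cells: the cultures were alike at 0 h, the GFP values rose over time, and the groups overlapped.

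**Figure D1:**
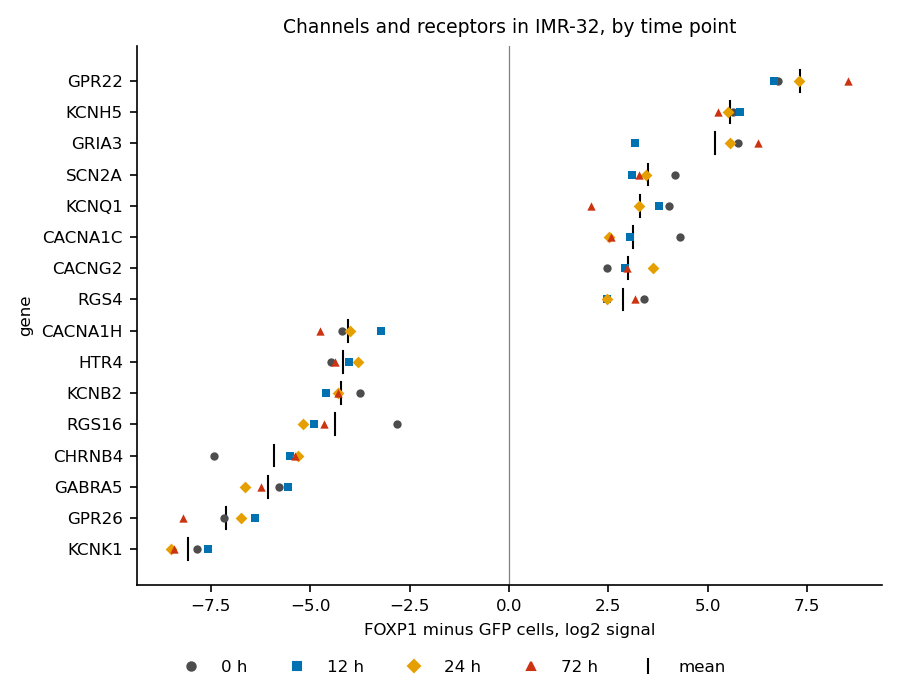
FOXP1 minus GFP difference in log2 signal (x axis) of the 8 highest and 8 lowest listed genes of IMR-32 by mean difference (y axis), 1 marker per time point and a black bar for the mean of 4 time points. GPR22 is highest at a mean of 7.32 and KCNK1 lowest at -8.09, and for each gene all 4 markers lie on 1 side of 0.

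In CHP-212, 43 of the 69 listed genes reached the limit for testing, 23 higher and 20 lower in FOXP1 cells, from -5.16 for KCNJ6 to 2.97 for KCNMA1, with a median size of 1.47. In this line limma called 3.03% of 32953 probes, 1.94% higher and 1.09% lower. Of the 26 others, 11 were above background on none of the 8 arrays. At 0 h, 31 of the 43 differed at least 2-fold in the direction of their mean, and 37 did so in the mean of 4 time points. The direction was the same at all 4 times for 35 of 43, beside 37.2% of all probes, and the groups did not overlap for 31, beside 14.0%, with nothing read from these. Normexp correction turned CACNG7 and moved the median of all probes by 0.13, and the other scalings kept all 43 directions. The listed gene nearest past 2-fold was KCNK1 at -1.01, and the gene nearest under it among those not listed was TRPM4 at 0.96. The values of 24 and 72 h, from the slide with more probes above background, are the last 2 of each run.

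Inward rectifier potassium channels, some of which G proteins open, were divided in CHP-212. KCNJ6, the subunit GIRK2 of such a channel, had log2 signals of -2.03, -0.92, -1.31 and -0.70 in GFP cells and -6.17, -6.13, -6.65 and -6.66 in FOXP1 cells. GFP cells were high and FOXP1 cells above background on no array, at least 16.2-fold lower. KCNJ8, the pore of an ATP-sensitive channel, had -4.16, -4.11, -3.63 and -3.17 in GFP cells and -5.81, -6.03, -6.18 and -5.94 in FOXP1 cells, at least 2.3-fold lower. KCNJ3, which pairs with KCNJ6 as GIRK1, had -6.21, -4.95, -5.19 and -4.81 in GFP cells and -4.26, -3.41, -3.24 and -2.76 in FOXP1 cells and went the other way, with the FOXP1 arrays all above the GFP arrays. No fold is given for KCNJ3, since both cultures had arrays without signal above background. KCNMA1, the pore of the large-conductance calcium-activated channel, had -3.09, -3.12, -3.25 and -2.95 in GFP cells and -0.35, 0.13, -0.32 and -0.00 in FOXP1 cells, 7.81-fold higher. KCNN2, the small-conductance relative, was at least 2.91-fold lower. KCNK13, a tandem-pore channel, had -6.02, -6.54, -6.08 and -7.15 in GFP cells and -3.43, -3.56, -4.13 and -3.77 in FOXP1 cells, at least 3.01-fold higher. Of the subunits that bind Kv4 channels, KCNIP4 was higher and KCNIP3 was 2.89-fold lower. The size for KCNIP4 is not given, since it was above background on 5 of 8 arrays. KCNH8, of the ether-a-go-go family, was 2.83-fold higher.

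The sodium channel SCN9A, which amplifies small depolarisations in sensory and sympathetic neurons, had log2 signals of -1.12, -1.09, -0.85 and -0.96 in GFP cells and 1.37, 1.89, 1.80 and 2.15 in FOXP1 cells in CHP-212. FOXP1 cells lay above GFP cells throughout, 7-fold higher. Of the T-type calcium channels, CACNA1I had -1.92, -2.22, -1.31 and -1.86 in GFP cells and -4.72, -5.21, -3.47 and -3.87 in FOXP1 cells, at least 3.85-fold lower. The auxiliary subunit CACNA2D2 was 2.32-fold lower with overlapping groups. The GABA-A subunit GABRA5 had -2.98, -2.66, -3.21 and -2.90 in GFP cells and -5.84, -5.92, -7.13 and -7.08 in FOXP1 cells, at least 5.04-fold lower, in the same direction as in IMR-32. GRIA3 had -4.36, -5.60, -4.31 and -4.35 in GFP cells and -1.82, -2.12, -1.91 and -2.04 in FOXP1 cells, at least 5.14-fold higher, also as in IMR-32. CHRNA3, which joins CHRNB4 in the ganglionic nicotinic receptor, had 0.57, 1.04, 1.37 and 0.67 in GFP cells and 2.51, 2.53, 2.80 and 2.64 in FOXP1 cells, 3.26-fold higher without overlap.

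HTR2B, a serotonin receptor that acts through phospholipase C, had log2 signals of -1.77, -2.06, -2.49 and -2.27 in GFP cells and 0.09, 0.90, 0.66 and 0.82 in FOXP1 cells in CHP-212, 6.78-fold higher. GPR183, a receptor for oxysterols, had -0.65, -0.59, -0.50 and -0.26 in GFP cells and 1.16, 2.33, 2.34 and 2.79 in FOXP1 cells, 6.3-fold higher. GPR126, an adhesion receptor now named ADGRG6, had -0.82, -0.38, -0.50 and -0.89 in GFP cells and 0.56, 1.37, 1.15 and 1.62 in FOXP1 cells, 3.54-fold higher. In these 3 receptors the smallest of the 4 differences was at 0 h. The CHP-212 FOXP1 array of 0 h had 53.9% of probes above background, the lowest share of all arrays. A change of these differences with time was not tested. GPR64, an adhesion receptor now named ADGRG2, had -3.14, -2.73, -2.71 and -2.56 in GFP cells and -5.65, -5.78, -6.68 and -5.81 in FOXP1 cells, at least 4.8-fold lower. GPRC5A, an orphan receptor induced by retinoic acid, was at least 2.56-fold lower.

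Some listed genes reached 2-fold at 1 time point alone. In CHP-212 these were GPR3, GPR6, GPR15 and KCNG4 at 12 h and CACNA1F and GABRP at 0 h, all 6 on the slide with fewer probes above background. The orphan receptors GPR3 and GPR6 had differences of 0.57, 3.08, 0.15 and -0.39 and of 0.54, 3.03, -0.30 and -0.35. In SK-N-BE(2) they included the orphan receptor GPR135 and the alpha-1B adrenergic receptor ADRA1B, both at 24 h. GPR135 had differences of -0.97, 0.15, 2.63 and -0.04, and ADRA1B of 0.95, -0.11, 2.13 and -0.30. Without the SK-N-BE(2) array labelled FOXP1 of 24 h the mean differences were -0.55 for GPR135 and -0.0033 for ADRA1B. In IMR-32 they were CACNB4 at 0 h and GPR31 at 12 h, where a GFP value of -9.58 stood far below the other 3.

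In SK-N-BE(2), 14 of the 19 listed genes reached the limit for testing, 9 raised and 5 lowered under the FOXP1 label, from -5.07 for GABRB1 to 2.74 for KCNAB1. The mean was at least 2-fold for 10 of the 14, the direction the same at all 4 times for 11, beside 28.1% of all probes, and the groups apart for 9, beside 5.93%. Here limma called 0.72% of 34042 probes, 0.426% higher and 0.294% lower. GABRB1 had log2 signals of -2.94, -3.03, -2.63 and -3.59 on GFP arrays and -8.72, -8.39, -7.50 and -7.84 on arrays labelled FOXP1. It was above background on every GFP array and on no array labelled FOXP1, at least 10.9-fold lower, although the FOXP1 signal was not higher there. KCNAB1, a subunit that inactivates Kv1 channels, had -6.37, -7.04, -5.95 and -5.54 on GFP arrays and -3.82, -3.49, -2.84 and -3.79 on arrays labelled FOXP1, at least 5.86-fold higher. GPR1, a chemerin receptor now named CMKLR2, had -8.90, -7.49, -6.96 and -7.10 on GFP arrays and -5.69, -4.69, -4.59 and -5.81 on arrays labelled FOXP1, at least 2.22-fold higher. TRPM8, the cold and menthol channel, had -4.84, -5.03, -4.77 and -4.28 on GFP arrays and -6.60, -6.99, -6.58 and -6.04 on arrays labelled FOXP1, at least 2.85-fold lower, with close differences at the 4 time points. KCNMA1 was 2.33-fold higher, CLCN4, a chloride and proton exchanger, was 2.3-fold higher, and RGS13 was at least 2.63-fold lower. The listed gene nearest past 2-fold was CLCN4 at 1.20, and RGS17 at 0.95 was the nearest under it among those not listed.

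HTR3B, which joins HTR3A in the serotonin-gated channel, had -5.11, -5.98, -4.66 and -5.81 on GFP arrays and -6.96, -7.34, -7.25 and -6.86 on arrays labelled FOXP1 in SK-N-BE(2), at least 2.15-fold lower. It is 1 of 4 members with the forkhead core TGTTTAC before the start, with GPR65, GPR135 and KCNMB3, of 102 with a promoter. The core occurred in 2.98% of 35116 promoters, a share of single starts, while a member counts if any of its starts holds the core. HTR3B holds it 12 bases before 1 of 2 annotated starts, in capitals below, from RefSeq on GRCh38.p14, plus strand, chr11:113904546-113904795.
HTR3B: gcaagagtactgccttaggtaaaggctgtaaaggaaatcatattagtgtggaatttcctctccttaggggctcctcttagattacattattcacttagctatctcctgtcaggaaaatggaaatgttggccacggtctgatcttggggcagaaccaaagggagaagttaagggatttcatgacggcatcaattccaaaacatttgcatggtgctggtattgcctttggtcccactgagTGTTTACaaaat
Of the 4, HTR3B was lower in SK-N-BE(2), KCNMB3 was higher in IMR-32, GPR135 rested on 1 array and GPR65 was above background on no CHP-212 array.

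**Figure D2:**
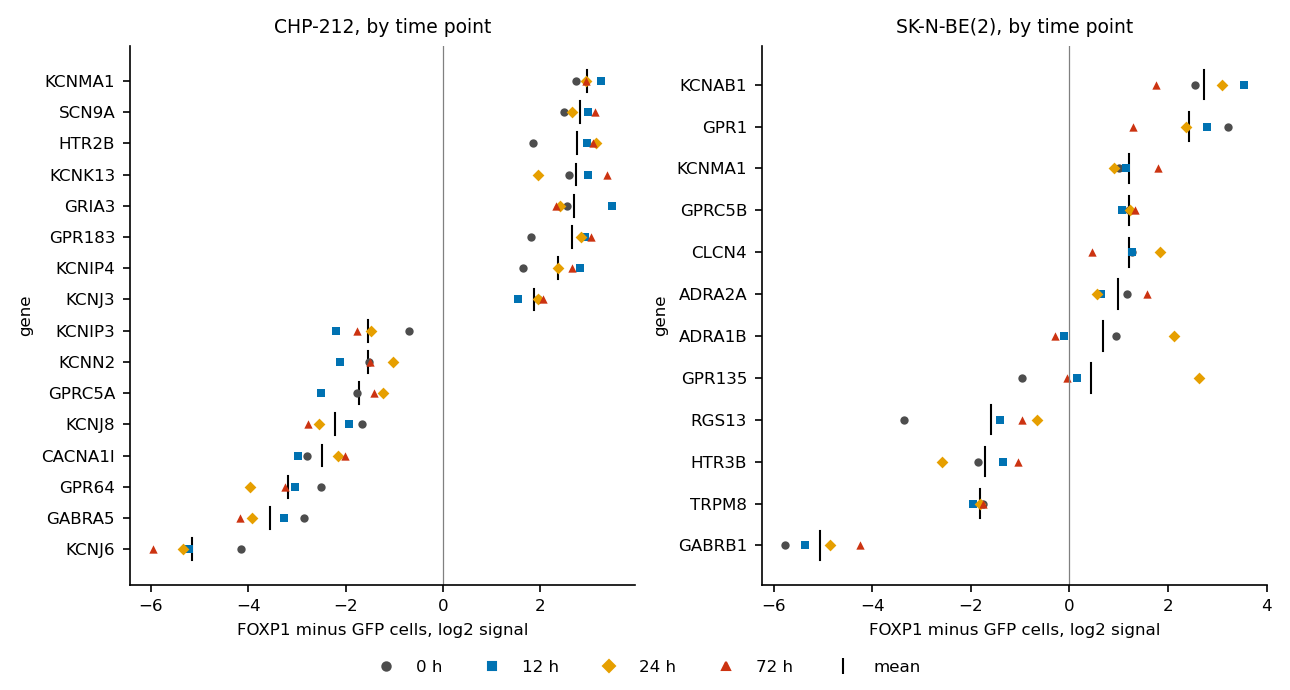
FOXP1 minus GFP difference in log2 signal (x axes) of 16 listed genes in CHP-212 (left) and 12 in SK-N-BE(2) (right), 1 marker per time point and a black bar for the mean. In CHP-212 the means run from -5.16 for KCNJ6 to 2.97 for KCNMA1, and in SK-N-BE(2) the 24 h markers of ADRA1B and GPR135 stand apart from the other 3 times.

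Of the 21 genes listed for 2 lines, 5 differed in opposite directions at every time point of the 2 lines, and this contrast between lines was not tested. ADRA2A was lower in IMR-32, with the values above, and in SK-N-BE(2) it had -2.04, -1.45, -2.06 and -1.68 on GFP arrays and -0.87, -0.80, -1.51 and -0.11 on arrays labelled FOXP1, with overlapping groups. GPRC5B, an orphan receptor induced by retinoic acid, had -0.93, -1.07, -1.16 and -1.21 in GFP cells and -3.17, -3.15, -3.10 and -3.11 in FOXP1 cells in IMR-32, 4.12-fold lower. In SK-N-BE(2) it had -3.38, -2.58, -2.19 and -1.57 on GFP arrays and -2.17, -1.53, -0.96 and -0.24 on arrays labelled FOXP1, with both cultures rising over time and the culture labelled FOXP1 higher at each. GRIN3A was 6.87-fold higher in IMR-32 but had 0.51, 1.08, 1.02 and 1.10 in GFP cells and -0.13, -1.00, -0.64 and -0.44 in FOXP1 cells in CHP-212, 2.8-fold lower. KCNJ8 had 0.18, 0.37, 0.31 and 0.25 in GFP cells and 1.57, 1.62, 1.79 and 2.20 in FOXP1 cells in IMR-32, 2.86-fold higher, and was lower in CHP-212. HTRA1, lower in IMR-32 mainly at 24 and 72 h, had 4.53, 4.43, 4.22 and 4.37 in GFP cells and 6.55, 5.76, 5.73 and 5.41 in FOXP1 cells in CHP-212, 2.78-fold higher. GABRA5, GRIA3 and GRIK2 moved in 1 direction in both IMR-32 and CHP-212, KCNK1 was lower in both, KCNMA1 and KCNAB1 were higher in both CHP-212 and SK-N-BE(2), and GABRB1 was lower in both IMR-32 and SK-N-BE(2). Of the 21, 8 were under the limit for testing in at least 1 of their lines.

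**Figure D3:**
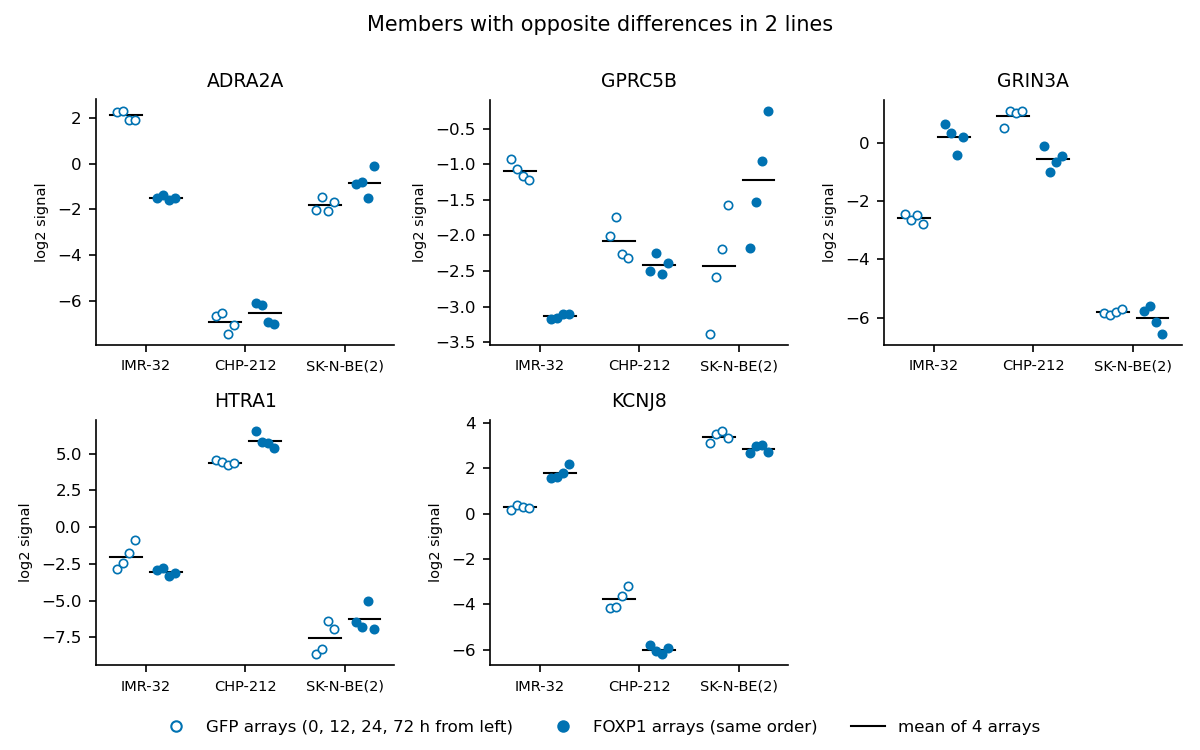
Log2 signal relative to the 75th percentile of the array (y axes) of 5 genes on every array, by line (x axes), with open circles for GFP arrays, filled circles for FOXP1 arrays in the order 0, 12, 24 and 72 h, and bars for means. GRIN3A and KCNJ8 are higher in FOXP1 cells of IMR-32 and lower in those of CHP-212, and ADRA2A is lower in IMR-32 with a difference of -3.59.

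Members not listed for a line were tested there with limma over all probes. Most genes past the authors' limits in a line were listed for it and so are not among them, and their counts are given beside the share of all probes with nothing read from the pair. Of 67 members not listed for IMR-32, 34 were tested and 4 called, 2 higher and 2 lower, or 11.8% beside the 12.2% of all probes. GPR158, an orphan receptor of class C, had -4.51, -4.29, -4.43 and -4.68 in GFP cells and -1.64, -1.84, -2.03 and -2.81 in FOXP1 cells. It was higher at all 4 time points without overlap, 5.25-fold, with an adjusted limma p of 7.66e-05. P2RX5 had 0.83, 0.57, 0.31 and 0.17 in GFP cells and -0.67, -0.38, -0.57 and -0.70 in FOXP1 cells, lower at 4 of 4 time points without overlap, 2.07-fold, adjusted limma p 0.00215. KCNK13 had -7.07, -6.54, -6.97 and -6.28 in GFP cells and -5.55, -5.30, -6.24 and -5.59 in FOXP1 cells, higher at 4 of 4 time points by 1.04, adjusted limma p 0.0131, though above background on 1 GFP and 3 FOXP1 arrays. GPR158 alone was called without the IMR-32 GFP array of 0 h, with the 0 h arrays of both cultures left out, and with normexp correction. KCNK13 also lost its call with quantile normalization, with the authors' values, on the 24 and 72 h arrays alone, where P2RX5 lost it too, and without the GFP array of 24 h or the FOXP1 array of 12 h.

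Of 67 members not listed for CHP-212, 36 were tested and limma called 0, beside 3.03% of all probes. At an unadjusted p under 0.05 there were 11, beside 18.3% of all probes. On the 24 and 72 h arrays alone limma called 1, GLRB. Leaving out the CHP-212 GFP array of 12 h, the GFP array of 24 h or the FOXP1 array of 72 h each gave 1 call, CHRNB4, and leaving out the FOXP1 array of 12 h gave 1, SCN4B. Of 117 not listed for SK-N-BE(2), 66 were tested and limma called 0, beside 0.72% of all probes, with 14 at an unadjusted p under 0.05 beside 7.68%. These counts of 0 follow in part from the listing. Another count, chosen after seeing the data, takes every member listed for another line, whether or not the line itself lists it. Its genes were chosen on the arrays of other lines, and some of them on those of the tested line as well. Genes listed anywhere differed in some line and most had signal above background, which all probes need not. The shares are given with no test of the one against the other. On that count limma called 16 of 48 members for IMR-32, or 33.3% beside 12.2% of all probes. For CHP-212 it called 9 of 47, or 19.1% beside 3.03%, and for SK-N-BE(2) 2 of 72, or 2.78% beside 0.72%.

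The level of each gene in a line, as the mean over both cultures, does not enter the difference that chose the genes. Most genes listed for a line did reach the limit for testing there. The level was compared between lines with limma on all 24 arrays. Of the 136 genes, 109 were tested. The filter asks for signal in 1 line, so a gene without signal in the other had to differ to be tested, and the members were listed for a difference in some line. The counts are therefore given beside those of all probes with nothing read from an excess, and no p-value is given for a gene with signal in 1 of the compared lines alone. Between IMR-32 and SK-N-BE(2), 55 were called, 30 higher and 25 lower in IMR-32, which is 50.5% beside 24.5% of 36231 probes, with 11.1% higher and 13.5% lower. Between CHP-212 and SK-N-BE(2), 68 were called, 35 higher and 33 lower in CHP-212, which is 62.4% beside 31.2%, with 15.8% higher and 15.4% lower. Between IMR-32 and CHP-212, 74 were called, 36 higher and 38 lower in IMR-32, which is 67.9% beside 31.4%, with 14.1% higher and 17.3% lower. The median differences were -0.24, -0.01 and 0.14 over the tested members and -0.21, -0.09 and -0.11 over all tested probes. With signal required on at least 4 of 8 arrays of both lines, a filter chosen after seeing the data, the calls in this order were 23 of 67 (10 higher, 13 lower), or 34.3% beside 21.0% of all probes, 34 of 63 (14 higher, 20 lower), or 54.0% beside 27.5% and 40 of 66 (18 higher, 22 lower), or 60.6% beside 27.1%. Each line was 1 pair of cultures on 2 slides, so line and slide cannot be told apart, and these p-values measure spread among arrays of the same cultures. With normexp correction the counts in the same order fell to 29, 42 and 42, and with signal required on all 8 arrays of a line to 34, 49 and 49. Calls over all probes, 8890, 11301 and 11378 in the main fit, fell too. They were 4922, 7463 and 6794 with normexp correction and 7646, 9939 and 9699 with that filter. Without the CHP-212 slide of 0 and 12 h, a choice made after seeing the data, the member counts were 55, 69 and 70, beside 8899, 11582 and 11625 probes.

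Several transmitter-gated channels were at different levels by line. GLRB ranged from -1.21 to 0.66 with a median of -0.29 on the 8 IMR-32 arrays and from -9.22 to -7.50 with a median of -8.64 in SK-N-BE(2), above background on none of the latter. It was at least 69.7-fold higher in IMR-32 over both cultures, the highest difference of that comparison by signal as read. The IMR-32 GFP arrays alone were lower than the FOXP1 arrays. GRIA2 ranged from -2.72 to 0.81 with a median of -1.13 in IMR-32 and was above background on no array of the other 2 lines, at least 42.3-fold higher than in SK-N-BE(2) and at least 20.8-fold higher than in CHP-212. These bounds pool both IMR-32 cultures, which differed. The IMR-32 GFP arrays alone were lower, and so the difference there was smaller. GRIK3 ranged from -1.64 to 3.05 with a median of 0.75 in IMR-32, from -1.73 to -1.05 with a median of -1.37 in SK-N-BE(2) and was above background on no CHP-212 array. The IMR-32 range is wide because the GFP cells were high. The difference to CHP-212 was at least 64.1-fold over both cultures, with no exact size given, since CHP-212 had no array above background.

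Potassium channels separated the lines in several ways. KCNK1 ranged from 2.89 to 4.32 with a median of 3.64 on the CHP-212 arrays and from -7.65 to -6.25 with a median of -7.13 in SK-N-BE(2), where 1 of 8 arrays was above background. That made at least 994-fold, and CHP-212 was also above every IMR-32 array. KCNJ8 ranged from 2.69 to 3.66 with a median of 3.09 in SK-N-BE(2), from 0.18 to 2.20 with a median of 0.97 in IMR-32 and from -6.18 to -3.17 with a median of -4.98 in CHP-212, with no overlap between any 2 lines. KCNK2 was above background on all arrays of IMR-32 and CHP-212 and on none of SK-N-BE(2), at least 18.4-fold and at least 8.99-fold higher. The bound for IMR-32 pools both cultures, of which the GFP arrays were higher. KCNK3 ranged from -0.16 to 0.77 with a median of 0.47 in SK-N-BE(2) and was above background on 1 CHP-212 array, at least 52.9-fold apart. KCNIP4 was at least 13.9-fold lower in IMR-32 than SK-N-BE(2).

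TRPV2, a heat-activated cation channel, ranged from 2.38 to 4.41 with a median of 3.17 in CHP-212, from -4.45 to -2.40 with a median of -3.36 in IMR-32 and from -3.61 to -2.02 with a median of -2.79 in SK-N-BE(2). CHP-212 stood above both, 70.7-fold over SK-N-BE(2) with an adjusted limma p of 2.87e-17, while the other 2 lines overlapped. CACNA1B ranged from 1.32 to 3.55 with a median of 2.41 in IMR-32, from -1.21 to 0.19 with a median of -0.47 in SK-N-BE(2) and from -4.74 to -4.07 with a median of -4.31 in CHP-212, 3 ranges without overlap. Among receptors coupled to G proteins, HTR2A, a serotonin receptor, was above background on 7 CHP-212 arrays, 2 of SK-N-BE(2) and none of IMR-32. ADRA2A was on all 8 arrays of both SK-N-BE(2) and IMR-32 and none of CHP-212, where it was at least 51.2-fold lower than in IMR-32 and at least 16.5-fold lower than in SK-N-BE(2). These bounds are over both cultures, and the IMR-32 GFP arrays alone were higher than the FOXP1 arrays. GPR126 ranged from -0.89 to 1.62 with a median of 0.09 in CHP-212 and from -3.85 to -3.12 with a median of -3.32 in IMR-32, with no SK-N-BE(2) array above background. It was at least 103-fold lower there than in CHP-212 over both cultures, and the CHP-212 GFP arrays alone were lower than the FOXP1 arrays. GPR183 was 81-fold higher in CHP-212 than in SK-N-BE(2), a difference of 6.34 over both cultures and 4.99 on the GFP arrays alone. GPR158 was 13.2-fold lower in IMR-32 than SK-N-BE(2), where it ranged from 0.13 to 0.72 with a median of 0.41, and on no CHP-212 array above background. IMR-32 minus SK-N-BE(2) was -3.72 for it over both cultures and -4.82 on the GFP arrays alone. GPR64 was at least 22.8-fold lower in IMR-32 than SK-N-BE(2).

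RGS16 ranged from 4.85 to 5.71 with a median of 5.24 in SK-N-BE(2), from -5.45 to -0.26 with a median of -2.95 in IMR-32 and from -5.75 to -3.16 with a median of -4.38 in CHP-212. SK-N-BE(2) stood above all arrays of the other lines, 260-fold over IMR-32 with an adjusted limma p of 8.14e-16. The IMR-32 mean pools 2 cultures that lay far apart, and IMR-32 minus SK-N-BE(2) was -8.02 over both cultures and -5.70 on the GFP arrays alone. RGS7 was above background on all IMR-32 arrays and on none of the other 2 lines, at least 40-fold over SK-N-BE(2) and at least 19.2-fold over CHP-212. These bounds are over both cultures, and the difference of RGS7 to SK-N-BE(2) was smaller on the GFP arrays alone. HTRA1 ranged from 4.22 to 6.55 with a median of 4.97 in CHP-212, from -3.32 to -0.90 with a median of -2.85 in IMR-32 and from -8.63 to -5.02 with a median of -6.84 in SK-N-BE(2). The difference between CHP-212 and SK-N-BE(2) was at least 2740-fold, the highest of that comparison. The alternatives were run for 27 level differences, those reported here of the 5 highest and 5 lowest called per comparison, and these kept their direction and call in all 901 values of alternatives that tested them.

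**Figure D4:**
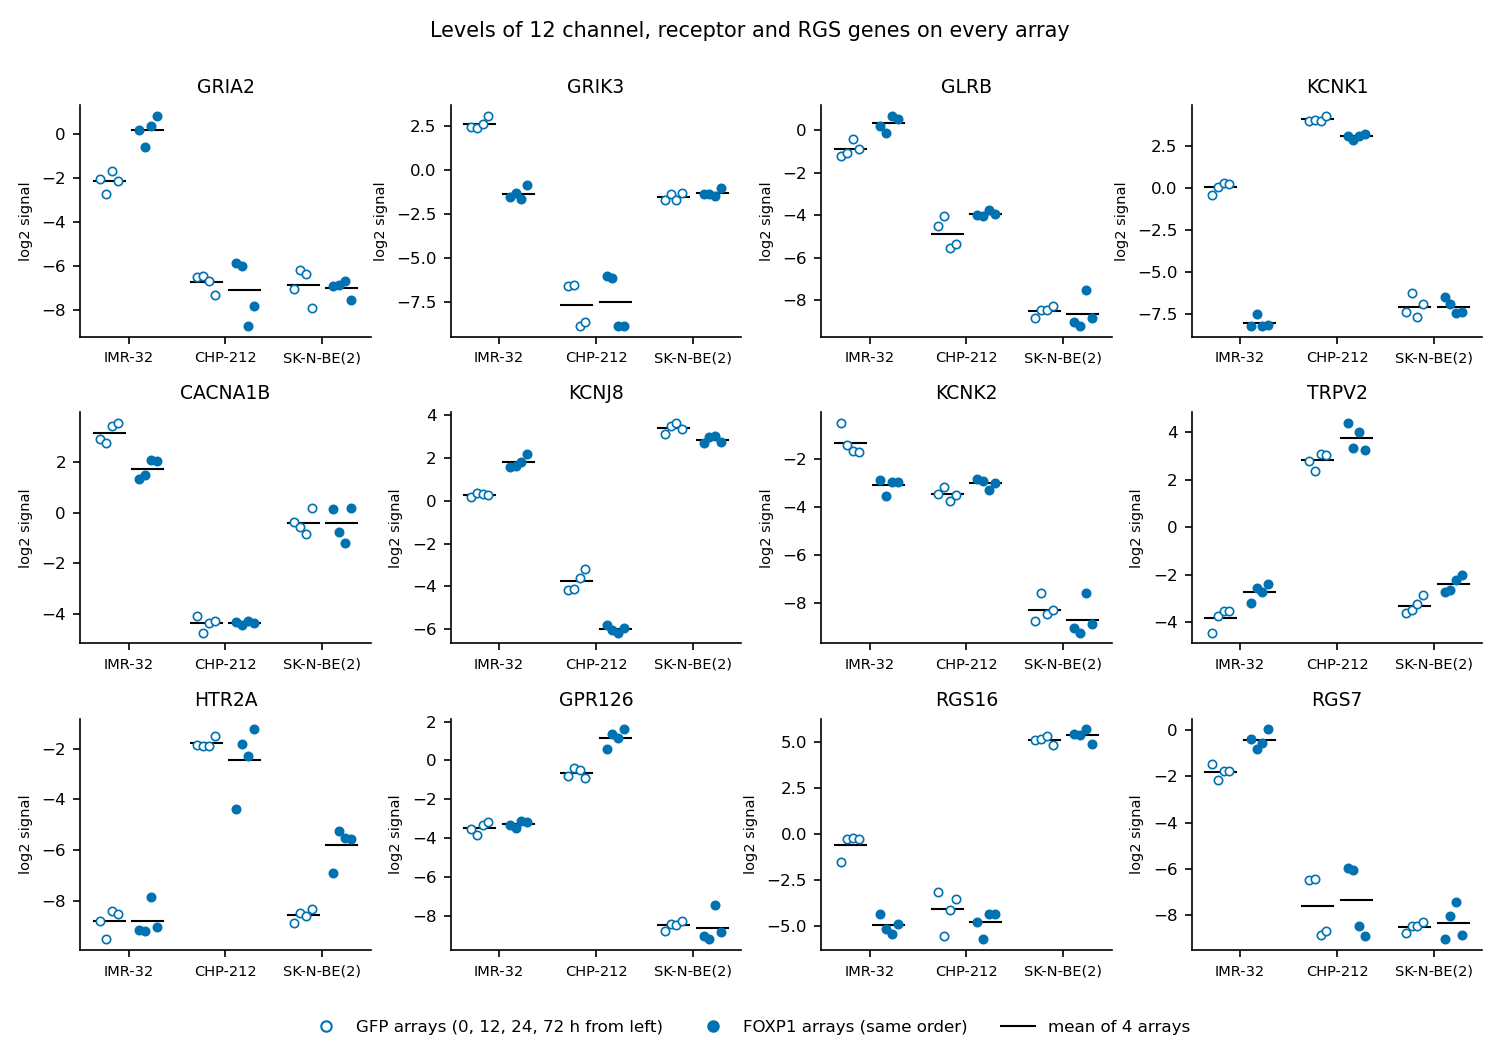
Log2 signal relative to the 75th percentile of the array (y axes) of 12 genes on every array, by line (x axes), with open circles for GFP arrays, filled circles for FOXP1 arrays in the order 0, 12, 24 and 72 h, and bars for means of 4 arrays. GRIA2 and RGS7 are high on the 8 IMR-32 arrays alone, TRPV2 on those of CHP-212, and RGS16 on those of SK-N-BE(2), and panels have their own scales.

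Changes with time were compared within slides, over the 6 cultures. From 0 to 12 h, 74 members were tested and limma called 0, beside 2.6% of 33008 probes, with 5 at an unadjusted p under 0.05 beside 13.2% of all probes. RGS11, an RGS protein of neurons, came nearest, with differences of -0.67, 0.13, -0.82, -1.52, -0.83 and -0.98 in the GFP and FOXP1 cultures of IMR-32, then of CHP-212 and then of SK-N-BE(2). It was lower at 12 h in 5 of 6 cultures, with an adjusted limma p of 0.086, and was called when the IMR-32 FOXP1 culture, the 1 that was higher, was left out. CACNG1, a calcium channel subunit, had differences of 1.22, 1.49, -0.02, -0.14, 1.35 and 0.86 and an adjusted limma p of 0.168. The 4 cultures outside CHP-212 were higher at 12 h, and CACNG1 was called without the CHP-212 slide. From 24 to 72 h, 87 members were tested and limma called 0, beside 0.0% of 34036 probes, with 11 at an unadjusted p under 0.05 beside 9.15% of all probes. KCNMA1 rose in 6 of 6 cultures, by 0.70, 0.69, 0.30, 0.32, 0.15 and 1.04, with an adjusted limma p of 0.541. GPRC5A was lower at 72 h in 6 of 6 cultures, with differences of -0.81, -0.08, -0.27, -0.45, -0.58 and -1.93 and an adjusted limma p of 0.541. It was above background on 1 of 8 IMR-32 arrays and on 6 of 8 in each other line, so its differences in IMR-32 are not measured.

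By the gene table of the reference, 50 of the 136 genes lie within 1 Mb of another member, in 32 pairs, and most of these are copies of a family side by side. Of the pairs, 15 were listed for the same line, and in 9 of these both genes reached the limit for testing. Their directions come from the difference that listed them and are given as a description, with nothing read from how many agree. Neighbours of different families were among them: CACNA1H and RGS11 differed by -4.05 and -3.21 in IMR-32, GLRB and GRIA2 by 1.22 and 2.34, and DRD2 and HTR3A by -1.62 and -1.08. In CHP-212, GPR55 and HTR2B differed by 0.57 and 2.76. P2RX4 and P2RX7 rose by 1.38 and 2.83 in IMR-32. Whether a copy number change or shared probe sequence plays a part was not tested. SCN9A, next to SCN2A and SCN3A, was listed for CHP-212 and not for IMR-32, where it had -1.73, -1.53, -1.84 and -2.78 in GFP cells and -1.40, -1.92, -1.81 and -2.34 in FOXP1 cells, so the 3 sodium channel genes did not all move together in 1 line. GABRB1 was lower in SK-N-BE(2) as well, where GABRA2 had -7.14, -8.25, -8.36 and -8.21 on GFP arrays and -8.77, -7.77, -7.36 and -8.19 on arrays labelled FOXP1 and was above background on 0 GFP and 0 FOXP1 arrays.

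**Figure D5:**
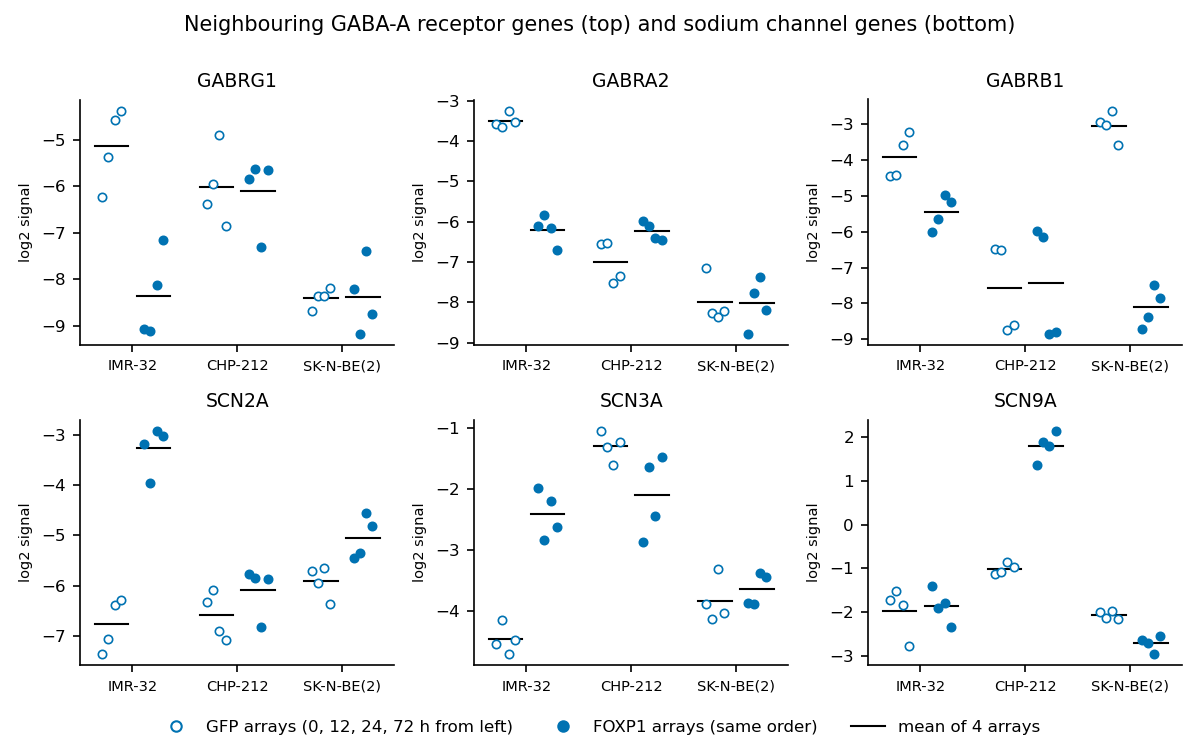
Log2 signal relative to the 75th percentile of the array (y axes) of 3 neighbouring GABA-A receptor genes (top) and 3 neighbouring sodium channel genes (bottom) on every array, by line (x axes), with open circles for GFP, filled circles for FOXP1 and bars for means. In IMR-32 the GABA-A receptor genes are lower and SCN2A and SCN3A higher in FOXP1 cells, and SCN9A is higher in FOXP1 cells of CHP-212.

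Genes that work with these channels and receptors were read from lists, all with a probe in the table, and each line's own listed genes were left out of its FOXP1 comparison, so that nothing is read from the FOXP1 counts, and the limit of the filter holds for the level counts. Over all probes the FOXP1 calls were 12.2%, 3.03% and 0.72% in IMR-32, then CHP-212, then SK-N-BE(2), and the level calls 24.5%, 31.2% and 31.4% in the order of the level counts below. For 17 other channels, among them ryanodine receptors and TRPA1, the FOXP1 calls were 0 of 0, 0 of 9 and then 0 of 7 tested in IMR-32, then CHP-212, then SK-N-BE(2). Their level calls for IMR-32 over SK-N-BE(2), CHP-212 over SK-N-BE(2) and IMR-32 over CHP-212 were 10 of 14 (4 higher, 6 lower), 10 of 14 (6 higher, 4 lower) and 9 of 14 (4 higher, 5 lower). For 24 other transmitter and peptide receptors the FOXP1 calls were 0 of 4, 0 of 5 and then 0 of 12 in the same order, and the level calls 11 of 19 (5 higher, 6 lower), 12 of 19 (7 higher, 5 lower) and 9 of 19 (3 higher, 6 lower). For 24 genes of transmitter synthesis, transport and release the FOXP1 calls were 1 of 6, 0 of 9 and then 1 of 13, with SYT17, a synaptotagmin relative, lower in IMR-32 and higher in SK-N-BE(2), and the level calls 15 of 20 (4 higher, 11 lower), 15 of 20 (3 higher, 12 lower) and 16 of 20 (12 higher, 4 lower). For 12 synaptic scaffolds the counts were 0 of 6, 0 of 3 and then 0 of 8, and 6 of 11 (4 higher, 2 lower), 6 of 11 (2 higher, 4 lower) and 7 of 11 (6 higher, 1 lower) for levels. For 11 genes of G protein signalling they were 1 of 3, 0 of 5 and then 0 of 8, with GNAS, the subunit that raises cyclic AMP, higher in IMR-32, and 5 of 11 (2 higher, 3 lower), 9 of 11 (4 higher, 5 lower) and 9 of 11 (4 higher, 5 lower) for levels. None of the 5 lists had a limma call in either time comparison.

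Of 10 markers of sympathoadrenal neuroblastoma cells, the entries used name 3: TH, DBH and CHGB. TH was above background on all 24 arrays, DBH on all arrays of SK-N-BE(2) and IMR-32 and 5 of 8 of CHP-212, and CHGB on all of the first 2 lines and 4 of 8 of CHP-212. Limma called all 3 in each comparison of levels, all lower in the IMR-32 mean of both cultures than in SK-N-BE(2), and DBH and CHGB lower and TH higher in CHP-212 than in either other line. In IMR-32 the means of GFP and FOXP1 cells were -1.16 and 2.18 for TH, -0.82 and 3.04 for DBH and 1.25 and 4.06 for CHGB, so all 3 were higher in FOXP1 cells. On GFP arrays and arrays labelled FOXP1 of SK-N-BE(2) the means of TH were 1.89 and 1.82, so TH was lower in IMR-32 GFP cells alone. The part of these markers in the results above was not tested. All 3 were listed for IMR-32 and not tested there for FOXP1. Limma called 0 of 2 for FOXP1 in CHP-212, 0 of 3 for it in SK-N-BE(2) and 0 of 3 in each time comparison. The marker missing from the count in CHP-212 had signal there and was left out because it was listed for that line. That count therefore does not show that the markers were unchanged in CHP-212. Of 8 mesenchymal or Schwann cell markers the entries name PRRX1, and of 4 blood cell markers PTPRC, and neither was above background on any array, so neither was tested. The other markers were not analysed here.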

How the data were processed

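RNA of 24 samples from 6 cultures was measured with 1 Agilent array each, labelled with Cy3. Per the file headers, the deposited intensity is the processed signal of each spot on a linear scale, background-subtracted and detrended, with no normalization between arrays. In the authors' second table the intensity values are quantile normalized between arrays. Spots called outliers by the scanner software (311) were left out. Each signal was put on the log2 scale and the array's 75th percentile over 43291 probes subtracted. A probe was tested when 4 or more of the 8 arrays of a line, or 6 of 12 for time, read it well above background, and for levels this had to hold in 1 line or more. Lines were compared in level over all 24 arrays, time points within slides with the 6 cultures as blocks.

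Tests used limma 3.58.1 in R 4.3.3, all two-sided, with Benjamini-Hochberg adjustment over all tested probes, and a call needs an adjusted p under 0.05 and, other than for time, a fold of at least 2. The fits were tested on simulated data. Tables and figures used Python 3.11.15, pandas 2.3.3, numpy 2.4.6 and matplotlib 3.10.9. Alternatives were normexp background correction (offset 50), quantile normalization, the authors' table, stricter and looser filters, blocks by time point or slide, the test of the study's methods, subsets of times and cultures, and leaving out each array or culture.

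The members and the lists of related genes and markers were chosen with earlier results of these data known. The lists hold other channels, other transmitter and peptide receptors, transmitter synthesis and release, synaptic scaffolds, G protein signalling and markers of sympathoadrenal, mesenchymal or Schwann-like, and blood cells. Genes were named by a rule: every member called in a line that does not list it, members listed for 2 or 3 lines, the 8 highest and 8 lowest listed differences per line, the 5 highest and 5 lowest called levels per comparison, called changes with time, and members within 1 Mb of another. Genes named outside it, to complete a role or a count, were chosen after their values were seen. Counts are over all members, and some genes in them are not reported here. The number of arrays limits the precision, and no p-value covers variation between separately made cultures.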

Additional observations from a re-analysis of the deposited data

Results flagged for a closer look

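Of 233 groups of 4 arrays, 9 held a value far from the other 3, where chance marks about 1 in 20 groups. The gap of that value to its neighbour, as a share of the group's range, was 0.833 for the calcium channel CACNA1H, 0.848 for the nicotinic subunit CHRND and 0.922 for the ATP-gated channel P2RX4 in SK-N-BE(2) GFP cells. In CHP-212 it was 0.871 for GRIN3A and 0.889 for HTR2A in GFP cells and 0.886 for RGS11 in FOXP1 cells. In IMR-32 it was 0.845 for KCNK2 in FOXP1 cells, and 0.973 for RGS16 and 0.834 for RGS4 in GFP cells, both with the low value at 0 h.

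In 5 genes every time point of a line moved one way and every time point of another line the opposite way. The FOXP1 minus GFP difference on the log2 scale in IMR-32 minus that in SK-N-BE(2) was -4.58 for ADRA2A and -3.25 for GPRC5B. For IMR-32 minus CHP-212 it was 4.26 for GRIN3A, 3.74 for KCNJ8 and -2.51 for HTRA1. These differences between lines were not tested, and their cause was not tested.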

How the results depend on the processing

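Normexp background correction changed most counts. With it limma called 1 member not listed for IMR-32 (GPR158) in place of 4, and 1426 probes in place of 4122 in IMR-32 and 605 in place of 997 in CHP-212. Member calls for level became 29 for IMR-32 minus SK-N-BE(2), 42 for CHP-212 minus SK-N-BE(2) and 42 for IMR-32 minus CHP-212, and calls from 0 to 12 h became 2. Over all probes the level calls in this order became 4922, 7463 and 6794 in place of 8890, 11301 and 11378. From 0 to 12 h they became 1954 in place of 859. The cause was not tested.

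Requiring signal on all arrays, which tests fewer probes, gave 627 probes in CHP-212, 34 members for IMR-32 minus SK-N-BE(2) and 49 for IMR-32 minus CHP-212 in level, and 1 member from 0 to 12 h. Level calls over all probes were then 7646 for IMR-32 minus SK-N-BE(2) and 9699 for IMR-32 minus CHP-212. Time points as blocks gave 477 probes in SK-N-BE(2). The test of the study's methods gave 537 there unadjusted and 121 adjusted, and 650 adjusted in CHP-212.

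Fewer time points mean fewer arrays. With 12, 24 and 72 h, 1 member was called in IMR-32, and 40 probes in SK-N-BE(2). With 24 and 72 h limma called 1 member and 514 probes in CHP-212. It then called 0 probes in SK-N-BE(2), with 911 at an unadjusted p under 0.05. In IMR-32 the count went the other way, with 4436 probes called on 24 and 72 h against 4122 in the main fit. With 0 and 12 h, chosen after seeing the data, 9 probes were called for CHP-212 and 7 for SK-N-BE(2), where the difference of GPR135 turned to -0.41. Counting every member listed for another line, also chosen after seeing the data, gave 16, 9 and 2 calls in IMR-32, then CHP-212, then SK-N-BE(2). Most of these were of genes that the tested line lists too. Signal in both compared lines, a later choice as well, gave 23, 34 and 40 level calls. Without the CHP-212 slide of 0 and 12 h, a later choice too, 1 member was called from 0 to 12 h.

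Leaving out each array in turn gave 1 to 4 members in IMR-32, lowest without the GFP array of 0 h, and 0 to 1 in CHP-212. Probe counts spanned 3937 to 4246 for IMR-32. For CHP-212 they spanned 620 to 1073, lowest without the GFP array of 72 h, and for SK-N-BE(2) 127 to 213, lowest without the 12 h array labelled FOXP1. Level calls ranged from 55 to 58, 67 to 71 and 70 to 76. Leaving out a culture gave 0 to 1 member from 0 to 12 h, with RGS11 called without IMR-32 FOXP1. Probe counts from 0 to 12 h, 859 in the main fit, then spanned 360 without SK-N-BE(2) FOXP1 to 1234 without CHP-212 FOXP1. In SK-N-BE(2), ADRA1B ranged from -0.0033 to 1.01 and GPR135 from -0.55 to 0.91, both lowest without the 24 h array labelled FOXP1. The alternatives gave 1246 values for 61 of the differences between FOXP1 and GFP cells named by rule. Of these values 1132 were unchanged within replicate spread or in call, 12 lost their call, 99 moved and 3 reversed. The 61 leave out SCN4B in IMR-32 and CACNG7 in CHP-212, named as neighbours, which turned with normexp correction. For the 27 levels all 901 kept direction and call. Genes near background are limited by signal over background.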
